A study of Mus musculus with 6 samples.

Results

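CD29lo cells are mammary epithelial cells sorted from dissociated glands by flow cytometry on the surface proteins CD24 and CD29, in the gate named P5 (CD24+CD29lo), and the labels describe them as enriched for luminal progenitors. They were set against total mammary epithelial cells (total MEC). The samples were chosen by their titles: 4 of the series' 6 arrays, 2 of P5 and 2 of total MEC. The groups were P5 of mice heterozygous for a knockout of DNP63 (het P5), P5 of wild-type mice (WT P5), total MEC of heterozygous mice (het MEC) and total MEC of wild-type mice (WT MEC), with 1 array each. All mice were virgin and of the strain C57/B6. How many mice gave each RNA, and their age, are not given in the labels. The other 2 arrays hold the CD24+CD29hi gate (P4), 1 of each genotype, which the labels describe as enriched for mammary stem cells.

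The mammary duct is a bilayer. Luminal cells line the lumen, carry keratins 8, 18 and 19, are joined by tight junctions and include hormone-sensing cells and progenitors that can turn to milk production. Basal myoepithelial cells lie outside them, carry keratins 5 and 14 and smooth-muscle contractile proteins, and express ΔNp63, a transcription factor of the p53 family. Fibroblasts, vessels, fat cells and leukocytes surround the duct, and CD29, which is integrin beta 1, is more abundant on basal than on luminal cells.

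Each array was hybridised with sample RNA in Cy5 and with one common RNA, a mix of 11 mouse cell lines, in Cy3. Every value below is log2(sample over this common RNA) unless it is called a difference, and a difference is P5 minus MEC on that scale, so that 1 is 2-fold. A gene is called higher or lower where the adjusted p of limma, a linear model fitted to each gene with the spread moderated over all genes, was below 0.05. The arrays carried 41174 non-control probes, and 24829 of 27670 genes passed a filter on dim probes. Between 82.7% and 86% of non-control spots were well above background in Cy5 on the P5 arrays, and 88.4% to 89.8% on the MEC arrays. The P5 arrays lie on slide 1 with P4 and the MEC arrays on slide 2, so slide and population cannot be told apart. The median Cy3 signal was 252 in het P5 and 290 in WT P5, against 116 in het MEC and 118 in WT MEC. Differences of the common RNA given below are of its Cy3 level after scaling on the mean of both channels. The sample's signal therefore enters them. With 1 array for each population and genotype, p-values measure only the spread between these arrays.

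A pair of marker genes had been named for this comparison, and their probes are shown because they differ in what they hold. Dcn encodes decorin, a small proteoglycan that fibroblasts secrete onto collagen. Kif12 encodes a kinesin motor. The 30 bases printed for each are part of a probe of 60 bases, in lower case, 5′ to 3′. Capitals mark the word CCTAACCC, 8 bases of the vertebrate telomere repeat, or the 18-base window that came closest to that repeat, or a run of C.
Dcn: gtctatgtgcgttctgccattcaacttgga
Kif12: tacaggGACCCTGACCCTAGACCTtgaacc
Kif12, second probe: taagaggaggatctgggattccaaacctga
2810459M11Rik: agCCTAACCCtattccctctcagtctcaag
4930535E02Rik: tcaacaaaacaCCTAACCCgttgtataaaa
Slc25a35: aagccttgataCCTAACCCgaggattacgg
AK083849: taatgtCTAACCATAAAACTAACCctttat
BE573237: acccccatgcgacagcaccacaCCCCCCCC
The Dcn probe lies at chr10:97080086-97080145 on the plus strand of mm7, the build the files name, and the first Kif12 probe at chr4:62599373-62599432 on the minus strand.

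Dcn had -2.57 in het P5 and -3.07 in WT P5, against 2.98 in het MEC and 3.42 in WT MEC. It was the gene with the lowest difference among those called, -6.02 with a standard error of 0.27, which is 64.9-fold lower in P5 (limma adjusted p = 0.0150). Its second probe was not well above background on any of the 4 arrays.

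The Kif12 probe with the repeat-like window had 5.58 in het P5 and 3.59 in WT P5, against 1.02 in het MEC and 0.39 in WT MEC, a difference of 3.88 (standard error 0.59, limma adjusted p = 0.0483). It was as high in P4, with 6.26 in het P4 and 3.17 in WT P4. P5 minus P4 was -0.13 (limma adjusted p = 0.93). The second Kif12 probe, also well above background on these arrays, had -0.09 in het P5 and -0.02 in WT P5, against -0.11 in het MEC and 0.03 in WT MEC, a difference of -0.01. The gene's own second probe thus did not show the difference. Kif12 as a marker of P5 rests on the probe with the repeat-like window alone, which was as high in P4. Whether the second probe responds to Kif12 was not tested.

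The search for shared letters was made after these values were seen. Of the 12 genes with the highest differences among those called, 7 rest on such a probe: 3 hold CCTAACCC (2810459M11Rik, 4930535E02Rik and Slc25a35), 3 match the repeat at 14 or more of 18 bases (AK083849, Kif12 and NAP030873-1) and 1 ends in a run of C (BE573237). None of the 12 genes with the lowest differences does. The array holds 29 probes with CCTAACCC, which is 0.0704% of its probes, and all of them passed the filter. Of these 22, or 75.9%, were at least 2-fold higher in P5 than in MEC, where 2.9% of all 36459 probes that passed were. Their median was 4.02 in het P5 and 2.40 in WT P5, against 0.31 in het MEC and 0.14 in WT MEC. The 13 probes above background that hold the reverse complement GGGTTAGG had none at least 2-fold higher and a median difference of -0.08. Of the 92 probes above background with CCCCCC, 17 (18.5%) were at least 2-fold higher, against 3 of 127 (2.36%) with GGGGGG. Overlapping words count in both sets where a probe holds both.

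**Figure D1:**
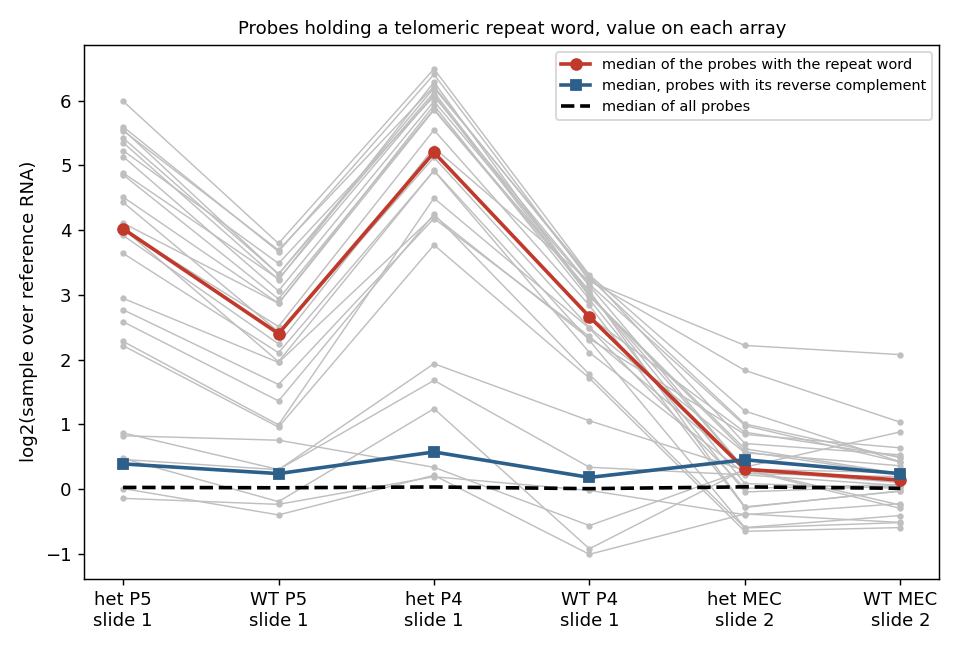
Log2(sample over common reference RNA) on each of the 6 arrays for the 29 probes with the 8-base telomeric repeat word (grey lines, 1 a probe), with their median (red), the median of the probes with its reverse complement (blue) and that of all probes (dashed). The red median is 4.02 and 2.40 on the P5 arrays and 0.31 and 0.14 on the MEC arrays, and it is high on the P4 arrays of slide 1 too.

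The same probes were high in P4, with a median difference of 3.45 from MEC beside 2.76 for P5. For 17 of their genes another probe passed the filter, and of those 23 probes 2 were at least 2-fold higher in P5, with a median difference of 0.15. One of the repeat probes is that of Terc, the RNA template of telomerase, with 4.04 in het P5 and 2.40 in WT P5, against 0.56 in het MEC and 0.36 in WT MEC. The other Terc probe, without the repeat, had a difference of 0.15. In all, 110 genes were tested on a probe with the repeat word, a close match or at least 6 C in a row. Of them 11 were called higher and 3 lower in P5, where 0.922% and 3.01% of all genes were. Of the 25 genes tested on a probe with CCTAACCC, 3 were called higher and none lower. What these probes bind was not tested.

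Across all genes, 977 of 24829 (3.93%) differed between P5 and MEC at a limma adjusted p below 0.05: 229 were higher in P5 (0.922%) and 748 lower (3.01%). The genes higher in P5 had a median difference of 1.16 and the genes lower in P5 one of -1.73, beside 0.03 over all genes tested. At least 2-fold, 159 were higher and 655 lower. These counts include the 11 higher and 3 lower genes tested on probes with the repeat, a close match or a run of C; a fit without those probes, chosen after the data were seen, called 222 higher and 753 lower. These calls rest on the spread shared with the P4 arrays: with the P5 and MEC arrays alone limma called 0 genes, although 4800 had an unadjusted p below 0.05, and with any 1 of the P5 or P4 arrays left out it also called 0. Without either of the MEC arrays the count rose. The MEC array that is left is then fitted exactly, so the spread comes from the P4 and P5 arrays of slide 1 alone.

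**Figure D2:**
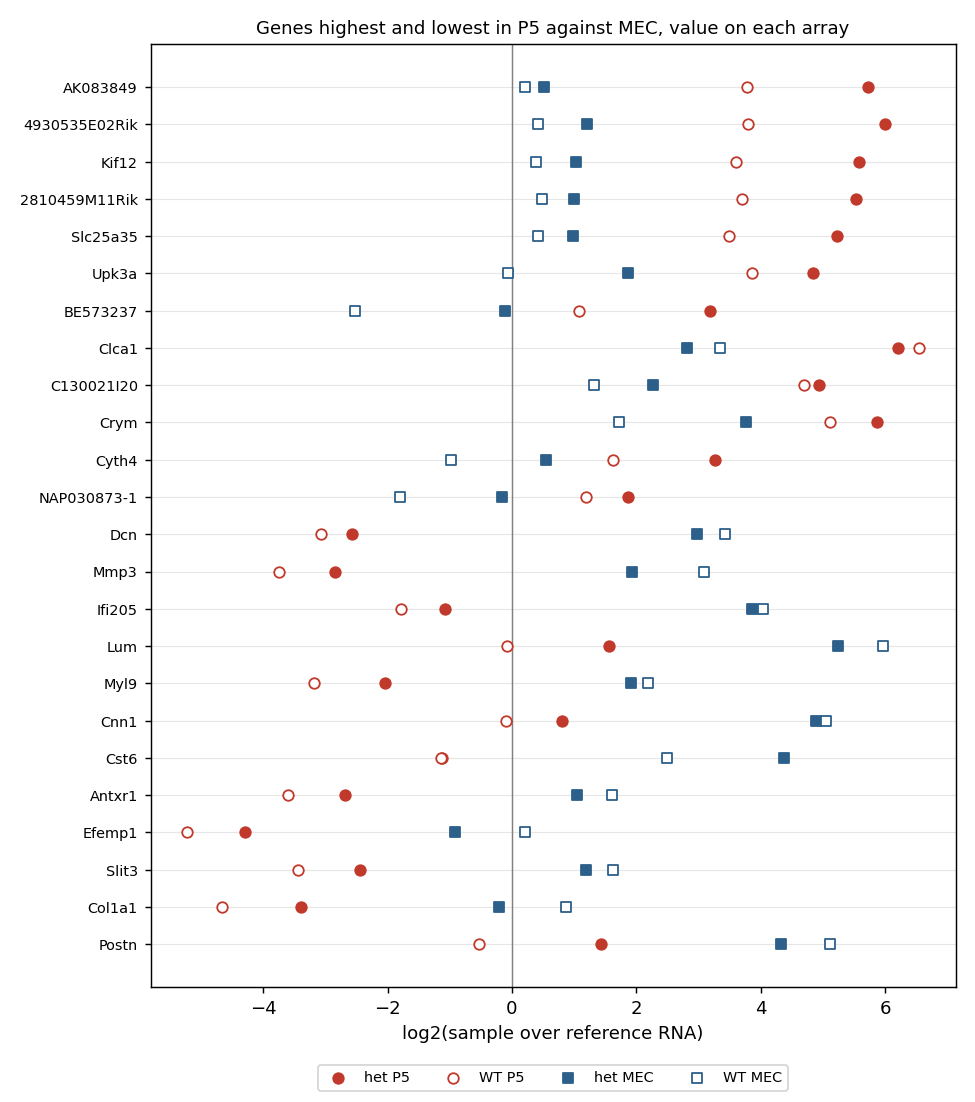
Log2(sample over common reference RNA) on each array for the 12 genes with the highest (top) and the 12 with the lowest (bottom) differences among those called; red circles are P5, blue squares MEC, filled het and open WT. In each of the 24 genes both P5 arrays lie on one side of both MEC arrays, as with Dcn at -2.57 and -3.07 in P5 against 2.98 and 3.42 in MEC. The genes were picked for their differences on these arrays, so this is no further result. Both P5 arrays lie above both MEC arrays in 25% of all genes and below in 23.7%.

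Among the 12 genes highest in P5, Upk3a, Clca1, Crym, C130021I20 and Cyth4 rest on probes without the repeat. Upk3a encodes uroplakin 3A, a membrane protein of the urothelium. It had 4.83 in het P5 and 3.87 in WT P5, against 1.87 in het MEC and -0.06 in WT MEC, a difference of 3.45 (limma adjusted p = 0.0179). On the same P5 arrays it was also called higher in P5 than in P4, by 3.27 (limma adjusted p = 0.0108). Clca1, a secreted protein of mucus-producing epithelia, had 6.21 in het P5 and 6.54 in WT P5, against 2.82 in het MEC and 3.35 in WT MEC. Its difference was 3.29 (limma adjusted p = 0.0169), and the scaled Cy3 level of the common RNA differed by -1.19 between the P5 arrays and the MEC arrays. Crym, which encodes a thyroid hormone-binding crystallin, had 5.87 in het P5 and 5.11 in WT P5, against 3.76 in het MEC and 1.72 in WT MEC. The transcript C130021I20 had 4.94 in het P5 and 4.69 in WT P5, against 2.27 in het MEC and 1.32 in WT MEC. In all 4 genes both P5 arrays were above both MEC arrays, where 25% of all genes were, but the 4 were picked for their differences on these arrays. Cyth4, an exchange factor for ARF GTPases, had a difference of 2.66 on the probe tested, and its other 3 probes had -0.35, 0.30 and -0.27. The probe tested was high in P4 too, with a difference of 3.03 from MEC.

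General luminal genes were higher on the P5 arrays, though few passed the test. All 20 members had a difference above 0, with a list median of 1.15. Called higher were 2, Ehf and Cldn4, where 0.922% of all genes were. Both P5 arrays lay above both MEC arrays in 19 of the 20, where 25% of all genes did. In bulk samples a difference in the number of cells of a type and one in RNA per cell cannot be told apart. Ehf, an epithelial ETS transcription factor, had 3.63 in het P5 and 2.78 in WT P5, against 1.60 in het MEC and 1.24 in WT MEC, and its other 2 probes had differences of 1.0 and 0.60. Cldn4, a claudin of the tight junction, had 6.76 in het P5 and 5.87 in WT P5, against 5.23 in het MEC and 4.21 in WT MEC. The differences of these 2 genes were 1.79 and 1.59 (limma adjusted p = 0.0271 and 0.0311). The luminal keratins themselves did not pass. Krt8 had 4.68 in het P5 and 5.42 in WT P5, against 4.72 in het MEC and 3.38 in WT MEC, so that the het arrays were level and the WT arrays apart. Krt18 and Krt19 had differences of 0.90 and 0.94 (limma adjusted p = 0.30 and 0.28), and Epcam, an adhesion protein of epithelia, one of 0.47 (limma adjusted p = 0.23).

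The size of these luminal differences depends on the channel read. The Cy3 level of the common RNA, which the sample's signal enters through the scaling, had a median difference of -0.55 between P5 and MEC arrays over the luminal list. On the Cy5 level alone the list's median was 0.67, with 3 genes called higher, and with median centring in place of loess 0.02, with 2 called higher. Median centring moved the median over all genes tested to -0.35, so values under it, here and below, are read beside that. Ehf, Cldn4, Kit, Elf5, Crb3, Prss8 and Slc5a8 were not called on the Cy5 level alone nor on the scanner software's log ratio. Csn3 was not called on Cy5 alone, and Marveld2, Ocln and Tspan8 were not on the scanner's ratio. Aldh1a3, Cldn4 and Tspan8 were not called with median centring. What part of the log-ratio differences the arrays themselves account for was not tested.

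Of 15 genes of luminal progenitors and alveolar fate, 4 were called higher in P5 and 1 lower. Over all genes these shares were 0.922% and 3.01%. The list median was 0.48, or -0.25 under median centring, where the median over all genes was -0.35. Aldh1a3, a retinaldehyde dehydrogenase used as a mark of luminal progenitors, had 8.71 in het P5 and 7.91 in WT P5, against 6.68 in het MEC and 5.51 in WT MEC. Its difference was 2.21 (limma adjusted p = 0.0403) and its second probe had 1.5. Kit, the stem cell factor receptor, had 4.69 in het P5 and 3.41 in WT P5, against 2.20 in het MEC and 1.93 in WT MEC, a difference of 1.99 (limma adjusted p = 0.0395). Elf5, the ETS factor of alveolar fate, had 6.56 in het P5 and 4.97 in WT P5, against 4.41 in het MEC and 3.30 in WT MEC, a difference of 1.91 (limma adjusted p = 0.0196). In each of these 3 genes both P5 arrays were above both MEC arrays, where 25% of all genes were, but the 3 were picked as called on these arrays. Read on the Cy5 level alone the differences were 1.06 for Aldh1a3 and 0.91 for Elf5. With outlier local backgrounds replaced Kit and Elf5 did not pass (limma adjusted p = 0.063 and 0.069). The fourth gene called higher was Tspan8, a tetraspanin, with a difference of 0.94. Slpi, a secreted protease inhibitor, was called lower, with -2.85 in het P5 and -3.11 in WT P5, against -0.56 in het MEC and 0.59 in WT MEC, while its second probe had a difference of 0.04.

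Hormone-sensing genes had a list median of 0.71, or -0.16 under median centring, where the median over all genes was -0.35. Of 19 members 1 was called higher, Cited1, a transcriptional co-regulator of estrogen-responsive cells, by 1.13 (limma adjusted p = 0.0463). Over all genes 0.922% were called higher. The estrogen receptor gene Esr1 had 3.22 in het P5 and 3.77 in WT P5, against 3.38 in het MEC and 2.72 in WT MEC. Foxa1, a pioneer factor of estrogen receptor binding, had differences of 0.87 in het and 2.10 in WT (limma adjusted p = 0.10). The list's median was 0.17 in het and 1.13 in WT.

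Milk and alveolar secretory genes had a median of 0.28, or -0.01 under median centring and -0.15 on the Cy5 level alone. Csn3, kappa casein, was the 1 gene of 15 called, where 3.93% of all genes were called in either direction. It had 4.37 in het P5 and 4.06 in WT P5, against 2.41 in het MEC and 1.59 in WT MEC, a difference of 2.22 (limma adjusted p = 0.0188). Its Cy5 level alone differed by 0.62, and the common RNA by -1.44. Csn2, beta casein, differed by -0.10 and Wap, whey acidic protein, by 0.45, both not called.

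Tight junction and apical polarity genes had a median difference of 1.07 (0.20 under median centring), with 4 of 18 called higher and none lower. Over all genes 0.922% were called higher and 3.01% lower. Marveld2, tricellulin, had 4.05 in het P5 and 3.64 in WT P5, against 2.29 in het MEC and 1.52 in WT MEC. Ocln, occludin, had 3.78 in het P5 and 3.17 in WT P5, against 1.96 in het MEC and 1.17 in WT MEC. Crb3, an apical polarity protein, was called higher by 0.96 but had -0.02 under median centring. Tjp1, a scaffold protein beneath the junction, had a difference of 0.12 and was not called. Cldn4, also a member of the luminal list, is the other gene called. The second probes of Marveld2 and Ocln had differences of 0.89 and 0.33.

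Mucosal secreted and apical surface genes had a median of 0.94, or -0.01 under median centring, with Clca1, Prss8 and Tspan8 called higher of 19. For these and the transport genes below, the shares over all genes were 0.922% called higher and 3.01% lower. Tspan8 is a progenitor list member too. Prss8, the membrane protease prostasin, had 3.71 in het P5 and 4.09 in WT P5, against 2.22 in het MEC and 1.37 in WT MEC. Of 20 transport genes 2 were called higher and 1 lower, with a median of 0.74 (0.07 under median centring). Atp6v1b1, a subunit of the proton pump of acid-secreting cells, had 3.19 in het P5 and 2.80 in WT P5, against 1.74 in het MEC and 0.81 in WT MEC. Slc5a8, a monocarboxylate transporter, was called higher by 1.42. Slc39a8, a zinc transporter, was called lower, with a difference of -1.53 on 1 of its 3 probes.

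Every fibroblast marker was lower on the P5 arrays. Of 21 members 15 were called lower, where 3.01% of all genes were, and none higher. In all 21 both P5 arrays lay below both MEC arrays, where 23.7% of all genes did. The list's median difference was -2.68, and between -3.56 and -2.28 under the alternatives that kept all P5 and MEC arrays. Lum, lumican, a collagen-binding proteoglycan, had 1.56 in het P5 and -0.09 in WT P5, against 5.25 in het MEC and 5.97 in WT MEC. Pdgfrb, a receptor of platelet-derived growth factor, had -2.46 in het P5 and -3.86 in WT P5, against 0.84 in het MEC and 1.01 in WT MEC. Pdgfra, the other such receptor, was called lower, with a difference of -2.72. Efemp1, an elastic-fibre protein, had a difference of -4.40, and Postn, periostin, one of -4.27 on the probe tested and 0.10 on its second probe. All 21 members were still well above background on both P5 arrays.

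Most matrix genes were lower in P5 too. Of 22 fibrillar collagens and other matrix genes 12 were called lower, where 3.01% of all genes were, and none higher. The list's median was -2.47, beside -0.31 for P4 minus MEC. Col1a1, a chain of collagen I, had -3.39 in het P5 and -4.66 in WT P5, against -0.21 in het MEC and 0.86 in WT MEC, and its other 2 probes had differences of -2.10 and -0.22. Col1a2, the partner chain, and Sparc, a collagen-binding protein, were called lower too, with differences of -3.75 and -3.91. Col14a1, a fibril-associated collagen, had 0.83 in het P5 and 0.12 in WT P5, against 4.10 in het MEC and 4.00 in WT MEC. Col3a1 had a difference of -5.04 but did not pass (limma adjusted p = 0.054). Of 18 metalloproteinases and inhibitors 6 were called lower, where 3.01% of all genes were, and none higher. Mmp3, stromelysin, had -2.85 in het P5 and -3.75 in WT P5, against 1.93 in het MEC and 3.08 in WT MEC, a difference of -5.81 (limma adjusted p = 0.0190). Adamts2, Mmp2 and Timp3 followed, with differences of -3.57, -2.47 and -2.37, and the other 3 probes of Adamts2 had -2.15, -0.16 and -0.21.

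Vessel markers were lower as well. Of 18 endothelial markers 13 were called lower, where 3.01% of all genes were, and none higher, with a median of -2.08. Flt1 and Kdr, both receptors of vascular endothelial growth factor, had differences of -3.43 and -2.71, and the other 4 probes of Flt1 ran between -3.24 and 0.10. Kdr had 0.86 in het P5 and 0.38 in WT P5, against 3.49 in het MEC and 3.16 in WT MEC. Cd34, a sialomucin of vessels and some stromal cells, had -2.78 in het P5 and -3.76 in WT P5, against 0.69 in het MEC and 1.18 in WT MEC. Cldn5, the endothelial claudin, had 2.55 in het P5 and 1.79 in WT P5, against 5.14 in het MEC and 4.40 in WT MEC. The scaled Cy3 level of the common RNA differed by -1.27. Of 9 pericyte and vascular smooth muscle markers 5 were called lower, led by Kcnj8, a potassium channel of pericytes, at -2.84, with -0.36 on its second probe.

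Of 15 adipocyte markers 5 were called lower, where 3.01% of all genes were, and none higher, with a median of -1.19. Lpl, lipoprotein lipase, had -1.08 in het P5 and -2.50 in WT P5, against 1.97 in het MEC and 1.86 in WT MEC. Cfd, the adipokine adipsin, and Car3, a carbonic anhydrase of fat, had differences of -3.21 and -2.52. The second probe of Car3 had 0.29, and the mean over its probes was -1.11. Adipoq, adiponectin, differed by -0.86 and Fabp4, the fatty acid-binding protein, by -2.20, neither called. Of 21 myeloid markers 6 were called lower, with a median of -0.78. Lyz2, lysozyme of macrophages, had -3.08 in het P5 and -3.43 in WT P5, against 0.15 in het MEC and 0.77 in WT MEC. Lyz1 is a close paralog, and the probes of the pair may share targets. H2-Ab1, a chain of MHC class II, had 0.49 in het P5 and 0.18 in WT P5, against 3.27 in het MEC and 2.93 in WT MEC. Ptprc, the pan-leukocyte protein CD45, had a difference of -1.31 and was not called.

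Basal and myoepithelial genes were lower in P5, and here P5 and P4 lay on opposite sides of MEC. Of 21 members 12 were called lower in P5 than in MEC, where 3.01% of all genes were, and none higher, with a median of -2.0. In P4 the median difference from MEC was 2.11, and 17 were called higher, where 2.75% of all genes were. In the test of P5 against P4, 19 of the 21 were called lower in P5, where 5.05% of all genes were. Myl9, the regulatory light chain of smooth-muscle myosin, had -2.04 in het P5 and -3.18 in WT P5, against 1.91 in het MEC and 2.18 in WT MEC. Cnn1, calponin, had 0.81 in het P5 and -0.10 in WT P5, against 4.89 in het MEC and 5.04 in WT MEC. Acta2, smooth-muscle actin, had a difference of -2.90 in P5 and 2.70 in P4. The list's direction for P5 was the same under each scaling tried, with medians between -2.93 and -2.0.

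Trp63, which encodes p63, had 0.89 in het P5 and 0.46 in WT P5, against 2.65 in het MEC and 2.78 in WT MEC. Its difference was -2.04 (limma adjusted p = 0.0357) on the brightest of 3 probes. The other 2 had -0.03 and 0.10, and the mean over the probes was not called, at -0.66 (limma adjusted p = 0.082, where the alternatives that kept all P5 and MEC arrays ran between 0.0056 and 0.101). Of the sort markers, Itgb1, integrin beta 1, was called lower in P5, with a difference of -0.92 (limma adjusted p = 0.0315), with -0.32 in het P5 and 0.17 in WT P5, against 0.58 in het MEC and 1.11 in WT MEC. Its other 2 probes had -0.42 and 0.06. Cd24a had 3.20 in het P5 and 4.68 in WT P5, against 4.02 in het MEC. Its spot on the WT MEC array was left out by the scanner's outlier check, and the difference of -0.56 was not called (limma adjusted p = 0.52).

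The basal keratins were among the members of the basal list that were not called. Krt5 had 2.62 in het P5 and 1.49 in WT P5, against 3.49 in het MEC and 3.18 in WT MEC, a difference of -1.28 (limma adjusted p = 0.064), and Krt14 one of -0.76 (limma adjusted p = 0.079). In these genes the scaled Cy3 level of the common RNA differed by -2.26 and -2.79 between the P5 arrays and the MEC arrays. On the same scaling the mean Cy5 level of Krt5 was 10.6 in P5 against 14.2 in MEC. That of Krt14 was 11.5 against 15.0. Hemidesmosome and basement membrane genes had 8 of 19 called lower, where 3.01% of all genes were, and a median of -0.48. Nid1, nidogen, differed by -4.25 and Col17a1, a hemidesmosome collagen, by -2.56, with 2.30 in het P5 and 1.49 in WT P5, against 4.50 in het MEC and 4.42 in WT MEC. The second probe of Col17a1 had -0.97, and the mean over its probes, -1.77, was not called (limma adjusted p = 0.051). Lamb1 and Col4a1, chains of laminin and of collagen IV, were called lower, with differences of -3.38 and -3.26.

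**Figure D3:**
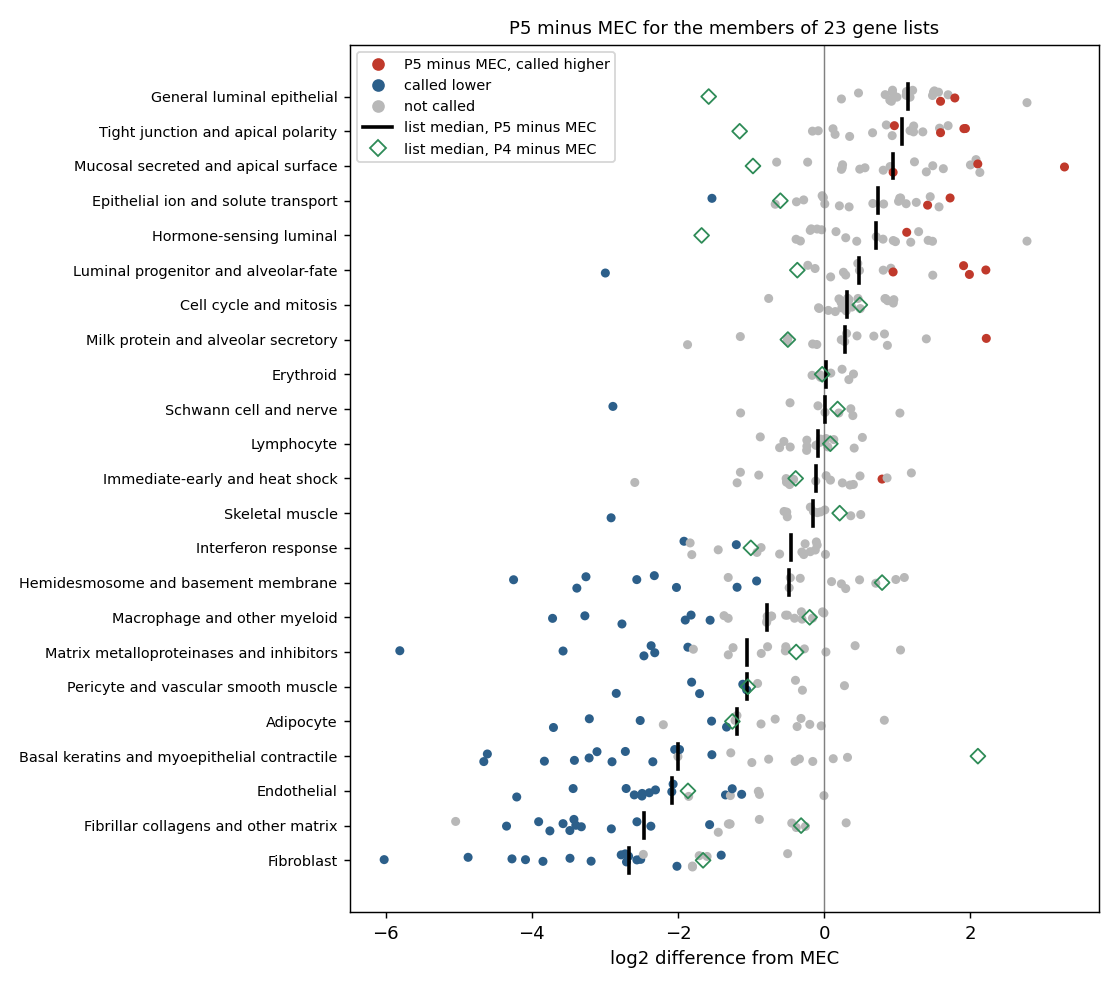
Difference from MEC (log2) of the members of 23 gene lists, ordered by the median of P5 minus MEC; dots are members, red where called higher in P5, blue where called lower and grey where not called, bars are list medians of P5 minus MEC and diamonds list medians of P4 minus MEC. Fibroblast markers have the lowest bar, at -2.68, luminal genes the highest, at 1.15, and the basal list has its bar at -2.0 and its diamond at 2.11.

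P4 and P5 share the MEC arrays, so their differences from MEC are given side by side. The fibroblast list had a median of -2.68 in P5 and -1.66 in P4, the endothelial list -2.08 in P5 and -1.86 in P4, and the luminal list 1.15 in P5 and -1.58 in P4. The test of P5 against P4, whose arrays all lie on slide 1, called 8 of the 21 fibroblast markers lower in P5 and none higher. Of the 22 matrix genes it called 12 lower and none higher. It called 1 of the 18 endothelial markers lower and 1 higher, and 17 of the 20 luminal genes higher, where 5.53% of all genes were. Dcn was called lower in P5 than in P4, with a difference of -2.16 (limma adjusted p = 0.0206). Aldh1a3, Clca1, Crym and Elf5 were called higher in P5 than in P4, by 5.57, 5.57, 4.87 and 4.76. Of the 229 genes higher in P5 than in MEC, those on repeat probes included, 138 were also called higher than in P4 and 1 lower, and of the 748 genes lower in P5 than in MEC, 359 were also called lower than in P4 and 8 higher. Of all genes, 5.53% were called higher in P5 than in P4 and 5.05% lower. Both tests use the same P5 arrays and fitted spread, so genes picked in one lean the same way in the other. These overlaps are therefore no independent support.

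The remaining lists held few or no called genes. None of 16 lymphocyte markers, 8 erythroid markers or 22 cell cycle genes was called in either direction by limma, where 3.93% of all genes were. At that share few or no calls in lists this short, here and below, say little about their members. At an unadjusted p below 0.05, 2 lymphocyte markers and 1 cell cycle gene were lower, 5 cell cycle genes were higher and 0 erythroid markers passed. Of all 24829 genes, 5549 passed at that level. Median centring, which called 33.3% of all genes, called 5 lymphocyte markers and 3 cell cycle genes lower. Cy5 alone, which called 6.78% of all genes, called 1 cell cycle gene higher. The cell cycle genes had a median of 0.31, which was 0.76 in het and -0.20 in WT and turned to -0.86 under median centring. Mki67, the proliferation antigen, had -2.76 in het P5 and -3.61 in WT P5, against -4.40 in het MEC and -3.86 in WT MEC. Of 16 interferon response genes 2 were called lower, Rsad2 and Mx2, with differences of -1.92 and -1.20. The other 2 probes of Rsad2 had -0.15 and -0.30, and the mean over its probes, -0.79, was not called (limma adjusted p = 0.089). Mx2 was not called with outlier local backgrounds replaced (limma adjusted p = 0.053), on Cy5 alone or on the scanner software's log ratio. Ifi205, a member of the interferon-inducible p200 family, was among the genes lowest in P5, at -1.07 in het P5 and -1.79 in WT P5, against 3.86 in het MEC and 4.03 in WT MEC, with another probe at -2.29 and 1 more not above background. Of 19 immediate-early and heat shock genes 1 was called higher, the heat shock gene Hsph1, by 0.79. The 1 gene called among 9 Schwann cell markers was Pmp22, a myelin protein gene, at -2.89, and the 1 gene called among 11 skeletal muscle markers was Acta1, an actin gene, at -2.92. Acta1 had a difference of 2.17 in P4.

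In het, 923 of 24787 genes (3.72%) were at least 2-fold higher and 927 (3.74%) at least 2-fold lower in P5 than in MEC. In WT, 1148 of 24755 (4.64%) were higher and 1424 (5.75%) lower. In both genotypes at once, 324 were higher and 701 lower, and 34 moved at least 2-fold in opposite directions. The differences in het and in WT correlated at 0.66 across 24713 genes, a description only, since genes do not vary independently and all share the 4 arrays. The genes called lower had a median of -1.55 in het and -1.89 in WT, and 551 of the 748 were further apart in WT. With 1 array against 1 in each genotype, the difference between the genotypes could not be tested here.

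**Figure D4:**
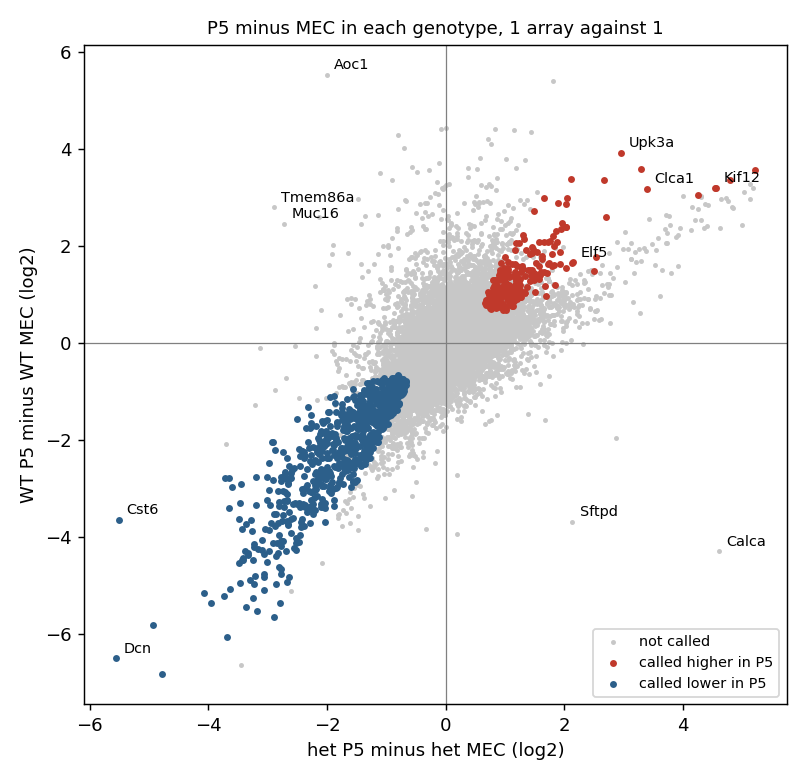
P5 minus MEC (log2) in het, horizontal, and in WT, vertical, for each gene measured in both; red and blue are genes called higher and lower in P5, grey the rest. Called genes lie in the upper right and lower left, Dcn at -5.55 in het and -6.49 in WT, and Calca and Aoc1 lie far out in the opposite corners.

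The common RNA is the same on every array, but its level here follows scaling on both channels. The sample's signal therefore enters that level, and the common RNA is no sample-free measure of how far the slides differ. Its level differed between P5 and MEC arrays by a median of 0.154 in size over 24713 genes, with a 95th percentile of 0.556, and by at least 1 in 162 genes. Among the genes called higher 16 were at least 1 apart in the common RNA, with a median of -0.17, and among the genes called lower 15, with a median of 0.05. On the Cy5 level of the same scaling 224 of 228 genes called higher were higher in P5, and 743 of 743 called lower were lower. The genes were picked on the log ratio, of which this Cy5 level is a part, so the counts were nearly fixed in advance. This level also differs from the Cy5 level alone used above, which was scaled without Cy3.

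**Figure D5:**
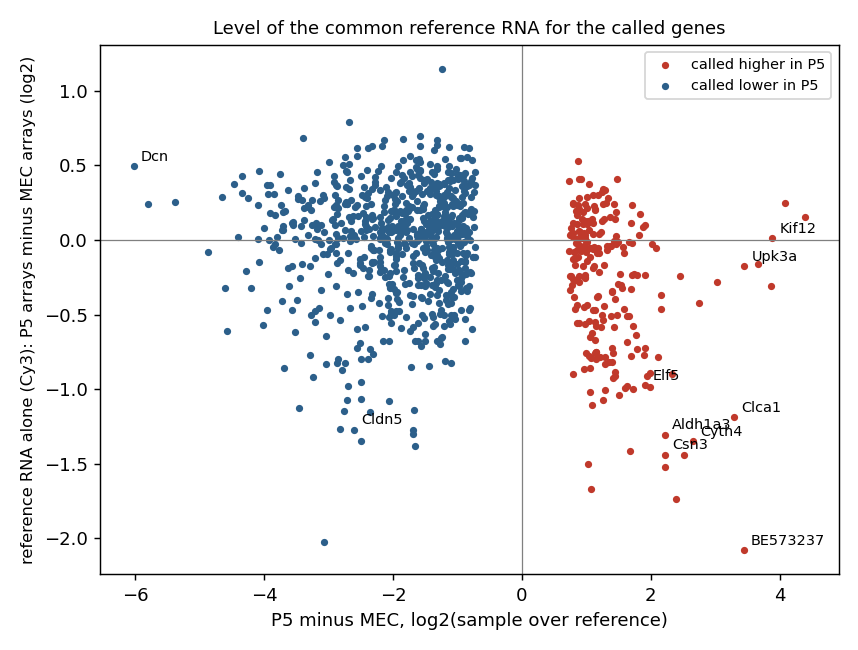
Difference of the Cy3 level of the common reference RNA after scaling on both channels, P5 arrays minus MEC arrays (log2, vertical). It is set against P5 minus MEC of the log ratio (horizontal) for the called genes, red higher and blue lower in P5. BE573237, Csn3, Aldh1a3 and Clca1 lie more than 1 below 0 on the vertical axis, and Kif12, Upk3a and Dcn within 0.5 of it.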

How the data were processed

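RNA of 6 samples was hybridised in Cy5 against Universal Mouse Reference RNA in Cy3 on 2-colour Agilent arrays, with no dye swap. Per the file headers and the submitters' processing notes, the authors scanned the spots and deposited mean and local background intensity per spot with Agilent Feature Extraction 9.5.3.1, and its log10 ratio of Cy5 over Cy3; the log2 values of the deposited series table correlated at 0.988 to 1.000 with those ratios and were used only as an alternative. How many mice gave each RNA is not given in the sources used here. Here, background was corrected by normexp (offset 50), arrays were normalised by loess with control and outlier spots at weight 0, spots of a probe were averaged and each gene took its brightest probe among those well above background on at least 2 of the 6 arrays. limma 3.58.1 (R 4.3.3) fitted population and genotype over all 6 arrays (2 residual degrees of freedom), with Benjamini-Hochberg adjustment over 24829 genes, and the script was tested on simulated data. Names come from the array accession (22951 probes) or symbol, updated through RefSeq. Probe sequences and mm7 positions are those of the files. Genes named are the 12 highest and 12 lowest called, Kif12, Dcn, Trp63, Cd24a and Itgb1, up to 4 called members of each list or else the 2 members with the largest differences, the 5 genes that differ most between genotypes in opposite directions, and cell type markers. Members, lists and markers were chosen with earlier results of these data known. Other genes were singled out after their values were seen: Wap, Csn2, Tjp1, Hsph1 and Terc.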

Additional observations from a re-analysis of the deposited data

Results flagged for a closer look

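Some genes and lists moved one way from MEC to P5 in het and the other way in WT; each rests on 1 array against 1, so the difference between the genotypes was not tested. Calca, the calcitonin peptide gene of hormone-sensing luminal cells, had 4.60 in het P5 and -0.10 in WT P5, against -0.01 in het MEC and 4.18 in WT MEC, so that its differences of 4.61 in het and -4.29 in WT lie 8.90 apart. It was high on 1 P5 array and on the MEC array of the other genotype. Aoc1, a diamine oxidase, had 3.46 in het P5 and 7.51 in WT P5, against 5.46 in het MEC and 1.97 in WT MEC, and het minus WT came to -7.54. Sftpd, a surfactant collectin, had 3.03 in het P5 and 1.84 in WT P5, against 0.89 in het MEC and 5.52 in WT MEC, with het minus WT at 5.81. Tmem86a, with differences of -2.90 in het and 2.80 in WT, came to -5.70, and Muc16, a membrane mucin, with -2.72 in het and 2.46 in WT, to -5.18. Glycam1, a milk mucin, had 0.20 in het and -3.94 in WT, or 4.13, and it was well above background on 1 MEC array and on neither P5 array. Of the list medians, het minus WT came to 0.96 for cell cycle genes, -0.38 for immediate-early and heat shock genes and 0.014 for erythroid markers.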

How the results depend on the processing

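Against 977 called genes (229 higher and 748 lower in P5), limma called 1515 with outlier local backgrounds replaced (500 higher), 1603 with no normexp offset (436 higher, 1167 lower), 1600 on the scanner software's log ratio (485 higher), 1599 on the deposited series table (485 higher), 8278 with median centring (447 higher, 7831 lower, 94.6% lower, with the median gene shifted by -0.37), 1684 on Cy5 alone (681 higher, 59.6% lower against 76.6%), 566 without the genotype term (63 higher, 88.9% lower) and 0 on the P5 and MEC arrays alone (0 higher, 0 lower; 4800 at an unadjusted p below 0.05). Leaving out 1 array gave 0 to 2038 genes (0 to 738 higher, 0 to 1306 lower). Genes at least 2-fold higher in both genotypes (324) came to 622 on the scanner's ratio, 623 on the series table and 101 with median centring, and lower ones (701) to 1269, 1269 and 4752. P4 minus MEC called 4441 with backgrounds replaced, 4367 on the scanner's ratio, 7026 with median centring, 4578 on Cy5 alone, 662 without the genotype term, 4364 on the series table and 0 to 4155 with 1 array left out. Without probes holding the repeat, chosen after the data were seen, 975 were called, 964 of them shared, and Kif12 turned to -0.011. Median centring turned Hba-a1 to -0.52, Birc5 to -0.39, Mki67 to -0.38, Hspa1a to -0.18, Crb3 to -0.021 and Calca to -0.98; Calca also turned to -1.26 on Cy5 alone and -0.051 over its probes. With 1 array left out, Cd24a ranged between -0.83 and 0.24, Calca -3.37 and 3.69, Tmem86a -2.24 and 2.14, Muc16 -2.42 and 2.17, Aoc1 -1.51 and 5.06, Sftpd -3.41 and 1.87 and Slc4a1 -0.0018 and 0.68. Of 74 named genes called, replaced backgrounds kept 70, no offset 74, Cy5 alone 63, the scanner's ratio 63, the probe mean 65 and no genotype term 43. Without the dim-probe filter Kif12, Col1a1, Postn, Slpi and Prss8 were among 10 not called. The genotype term pairs P5 with MEC by genotype, so the fit without it is the unpaired counterpart; the labels carry no replicate numbers for another pairing. The cause of these changes was not tested.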

Other observations

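Among genes not called, Prom1, the surface protein CD133 of hormone-sensing luminal cells, had 4.39 in het P5 and 5.38 in WT P5, against 3.25 in het MEC and 0.97 in WT MEC, a difference of 2.78 (limma adjusted p = 0.14). Rspo1, a secreted activator of Wnt signalling, had differences of 2.88 in het and -1.96 in WT. Dmbt1, a mucosal scavenger protein, had 0.38 in het and 3.62 in WT, and Slc12a2, a chloride cotransporter, -0.04 in het and 3.19 in WT. These genes were chosen after their values were seen.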
